A study of Homo sapiens with 4 samples.

Results

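In untreated LNCaP, a human prostate cancer cell line that depends on androgen, the cells with the least kallikrein RNA were compared with those holding the most. The cells came from the parental library kept for 48 h in the solvent DMSO at 0.1%, one of 4 single-cell RNA sequencing libraries. A second library held parental cells given 10 µM of the antiandrogen enzalutamide for 48 h (LNCaP-ENZ48). RES-A and RES-B are resistant LNCaP sublines kept in 10 µM enzalutamide, RES-B after selection with the related antiandrogen RD-162. Each group is 1 library of sorted living cells, so cells are not replicates of a condition and no difference below has a replicate check. Of 2358 barcodes in the DMSO library, 1852 had at least 1500 genes and 16000 UMIs (unique molecular identifiers, one per captured RNA molecule) and under 20% of UMIs from mitochondrial MT- genes. The low cells were chosen by their KLK2 and KLK3 UMIs. The score of a cell was the number of KLK2 and KLK3 UMIs per 10000 UMIs, and the lowest 15%, 278 of the 17233 barcodes of the series, are called kallikrein-low. The 278 cells with the highest scores are called kallikrein-high. Levels are CPM (counts-per-million), a gene's share of the UMIs summed over a group, ratios are log2 of low over high, and intervals are exact 95% intervals that cover counting error only.

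KLK3, which encodes prostate-specific antigen, and KLK2, which encodes a related secreted serine protease, are classic androgen-induced genes of luminal prostate cells. Androgen acts on such genes through response elements in their promoters and enhancers, where factors such as FOXA1 and HOXB13 also bind. Their RNA is therefore widely used as a readout of the androgen response. The genes are neighbours on chromosome 19 (GRCh38, GENCODE annotation), KLK3 (ENSG00000142515) at 50854915 to 50860764 and KLK2 (ENSG00000167751) at 50861568 to 50880567, both on the plus strand.

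The 250 bases before the RefSeq start of each gene are shown because the score adds the RNA of both. Capitals mark GAACAGCAAGTGCT, the known proximal androgen response element without its first base.
KLK3, GRCh38.p14, chr19:50854665-50854914, plus strand: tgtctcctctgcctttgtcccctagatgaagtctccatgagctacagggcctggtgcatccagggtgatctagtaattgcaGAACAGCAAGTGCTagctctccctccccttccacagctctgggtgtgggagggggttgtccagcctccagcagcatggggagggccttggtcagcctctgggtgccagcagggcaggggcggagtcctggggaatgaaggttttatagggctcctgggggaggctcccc
KLK2, GRCh38.p14, chr19:50873189-50873438, plus strand: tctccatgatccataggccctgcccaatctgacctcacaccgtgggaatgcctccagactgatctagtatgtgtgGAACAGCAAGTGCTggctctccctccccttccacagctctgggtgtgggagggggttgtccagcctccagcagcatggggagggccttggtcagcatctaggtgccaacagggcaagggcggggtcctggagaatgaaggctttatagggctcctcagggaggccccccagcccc
The stretch in capitals starts 169 bases before the start of KLK3 and 175 bases before that of KLK2. Read on both strands, it was found in 2 of 35116 windows of this length in the RefSeq table, which are these. The hexamer AGAACA, read on both strands, was in 12.4% of the windows, KLK3 among them and KLK2 not. The RefSeq start of KLK2 lies inside the longer gene span of GENCODE. Aligned without gaps, the windows were identical at 185 of 244 positions, with a longest shared run of 80 bases.

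The values that chose the cells are given as a description. The score of the low cells ran from 0 to 0.895 with a median of 0.383, and the next cell had 0.898. In the high cells it ran from 21.5 to 130 with a median of 31.5, and the next cell below had 21.4. The summed level of KLK3 was 12.7 CPM in low and 2758 CPM in high cells, and that of KLK2 was 22.7 and 691 CPM. Of the low cells, 95 (34.2%) held no UMI of either gene, 198 held none of KLK3 and 140 none of KLK2. Their depth was close to that of the high cells, with medians of 25531 and 27984 UMIs and MT- shares of 9.72% and 9.53%. When every cell was thinned to 5000 UMIs, 85.3% of the low cells and none of the high cells (0 of 278, which allows a share of up to 1.32%) lacked both RNAs.

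From cell to cell, KLK2 and KLK3 hardly followed each other. Across the 1852 cells Spearman's rho between their levels was 0.126, as a description of cells from one library. KLK3 had no UMI in 506 cells and KLK2 none in 264. Among the 617 cells lowest in KLK3, 220 were also among the 617 lowest in KLK2, but 209 were among the 617 highest in KLK2. In those 209 cells KLK2 stood at 798 CPM with KLK3 at 6.89 CPM, and in 147 cells of the opposite kind KLK3 stood at 1429 CPM with KLK2 at 31.4 CPM. Ranking by KLK3 alone kept 108 of the 278 low cells, and ranking by KLK2 alone kept 145. As 506 cells had no KLK3 UMI, the 278 lowest by KLK3 were all tied at 0 and taken by barcode order, so the 108 depends on that order. As the score is a sum, a low score requires both RNAs to be scarce, and 216 of the kallikrein-low cells lay among the 220.

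**Figure D1:**
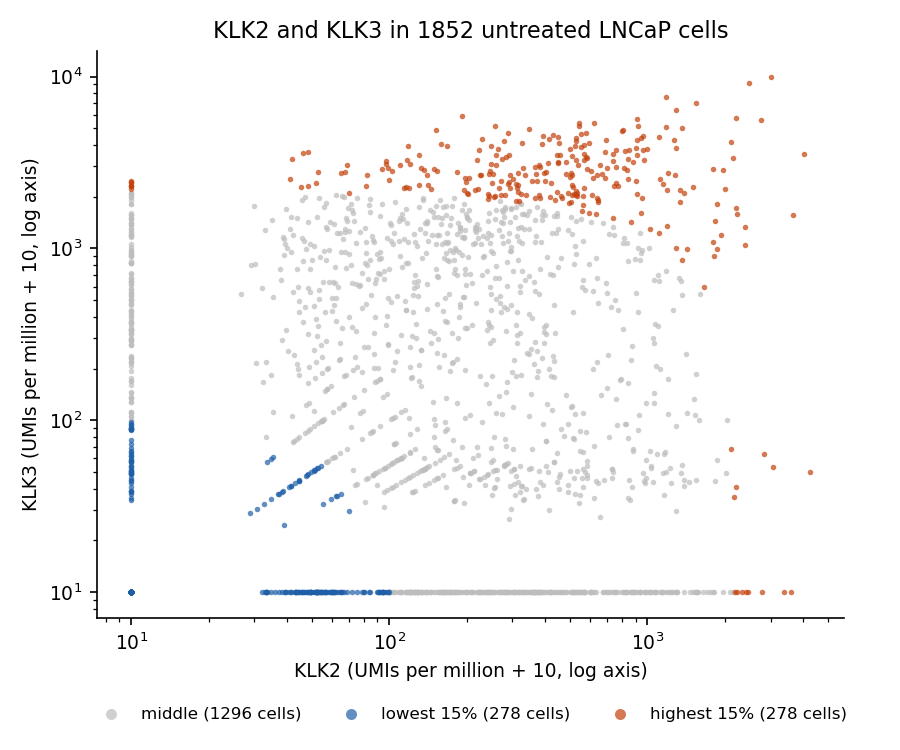
Each point is one of 1852 untreated LNCaP cells, with KLK2 on the horizontal and KLK3 on the vertical axis (CPM plus 10, log axes), coloured by score group. Many cells lie along either axis, where one RNA has no UMI while the other spans its whole range.

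Low and high cells also differed in the share of a cell's UMIs that came from chromosome 12, which the score did not use. In low cells its median was 5.52% of the UMIs outside MT- genes, with the middle 50% of the cells between 5.33% and 5.76%. In high cells the median was 6.98%, between 6.71% and 7.23%. The share had 2 peaks over the library, at 5.3% and at 7.1%, with only 12 cells between 6.1% and 6.2%. Divided at 6.15%, a line drawn after the values were seen with 28 cells within 0.1 of it, 239 of 278 low cells (86.0%, interval 81.3% to 89.8%) lay in the lower range and 31 of 278 high cells (11.2%, 7.70% to 15.5%) did. Of the 1296 cells between them 49.3% lay in the lower range. DNA was not read in these libraries, so whether the cells differ in their chromosomes was not tested.

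**Figure D2:**
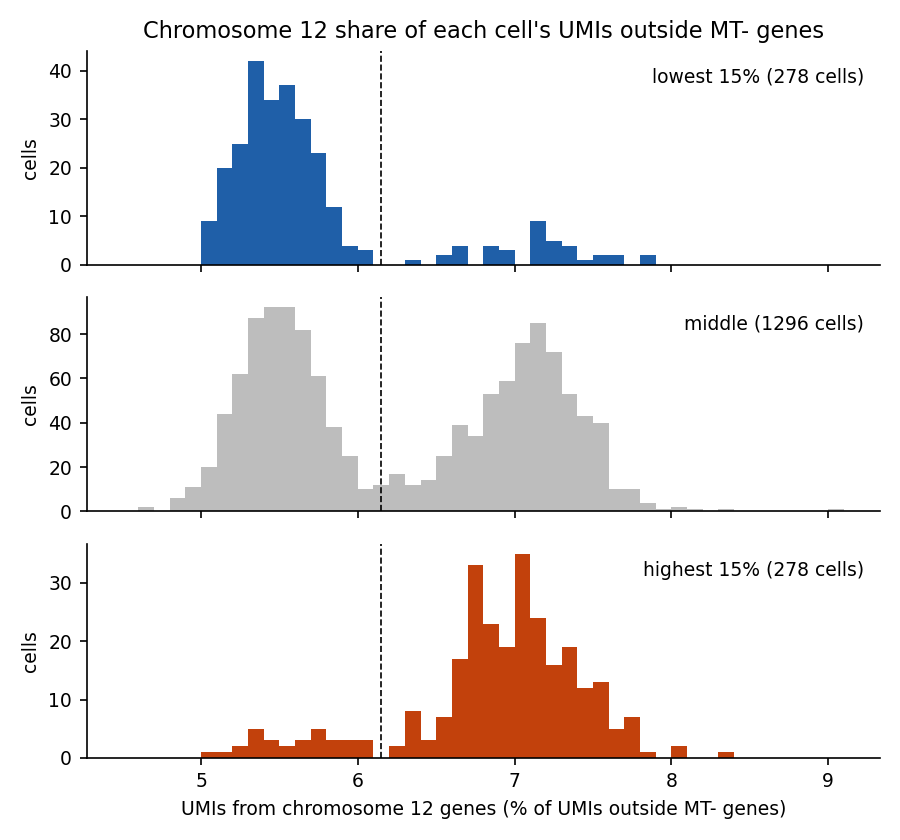
Histograms give the number of cells (vertical axis) at each share of UMIs from chromosome 12 (horizontal axis, % of UMIs outside MT- genes) for the lowest 15%, the middle and the highest 15% of the score. The low cells gather near 5.5% and the high cells near 7%, while the middle cells show both peaks on either side of the dashed line at 6.15%.

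The shift was seen along the chromosome. Of 255 chromosome 12 genes at 20 CPM or more, 187 (73.3%) were lower in low cells, against 31.6% of all 5057 genes. Their median ratio was -0.17, where all genes had 0.13, and in 5 consecutive runs of 51 genes from one end to the other the medians were -0.20, -0.15, -0.13, -0.20 and -0.19. Chromosome 6 had a median of -0.04 and chromosome 4 one of 0.31, while the others lay between 0.08 and 0.20. KLK3 itself is on chromosome 19, whose median was 0.08. Ranked by KLK3 alone, chromosome 12 had a median of -0.25, chromosome 6 one of -0.12 and chromosome 4 one of 0.26, but ranked by KLK2 alone these were 0.19, 0.22 and 0.05. Without its 10 most abundant genes, the chromosome 12 share still had medians of 2.83% in low and 3.28% in high cells.

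**Figure D3:**
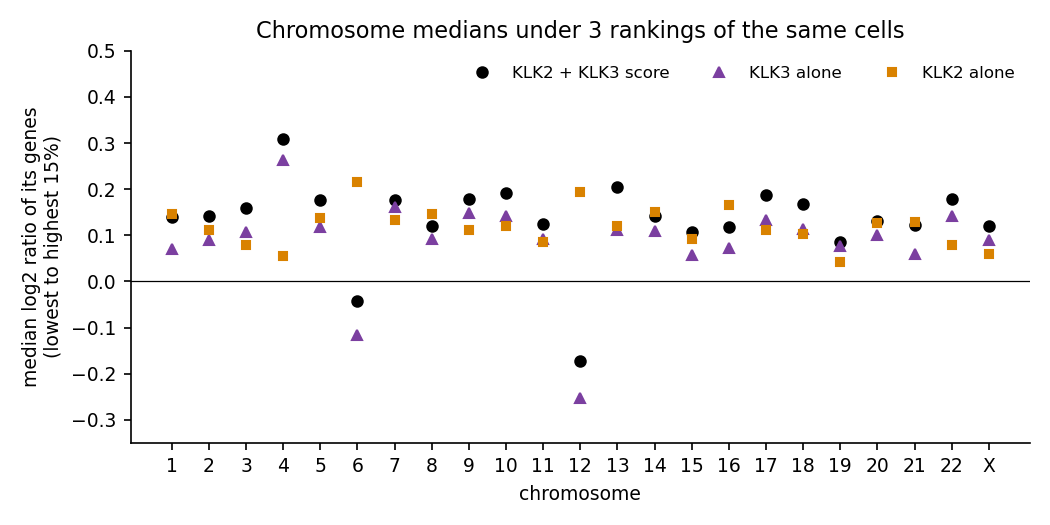
Each point is the median log2 ratio of the genes of one chromosome, lowest against highest 15% of cells, with the cells ranked by the sum of KLK2 and KLK3, by KLK3 alone or by KLK2 alone. Chromosome 12 lies at -0.17 and -0.25 in the first and second ranking and at 0.19 in the third.

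Kallikrein RNA differed between the ranges of chromosome 12 share, in opposite directions for KLK3 and KLK2. KLK3 summed to 109 CPM in the 909 cells of the lower range and 1292 CPM in the 943 cells of the upper one, a ratio of -3.57 (-3.63 to -3.52). It had no UMI in 51.9% of the former and 3.61% of the latter cells, at median depths of 26867 and 27899 UMIs and with 67.8% and 73.2% of cells called G1. KLK2 went the other way, at 384 and 255 CPM (0.59, 0.55 to 0.64). KLK4, another kallikrein of the same cluster, also stood higher in the lower range, at 180 and 110 CPM, whereas TMPRSS2, another androgen-induced gene, was at 103 and 108 CPM. Within the ranges KLK2 and KLK3 followed each other more closely than in the whole library, with rho of 0.187 in the lower and 0.451 in the upper range. Between the ranges 1.29% of the genes were lower and 1.39% higher in the lower range by at least 0.5, and of 27 androgen-induced genes other than KLK2 and KLK3 none was among the former and 4 were among the latter.

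The enzalutamide-treated parental cells, a separate library, were read the same way. Of 1471 cells, 631 lay below 6.15%. KLK3 was at 25.6 CPM there and at 107 CPM in the other 840 cells (-2.06, -2.24 to -1.90), and KLK2 was at 21.2 and 12.4 CPM (0.78, 0.51 to 1.04). The same ranges of SYT4 read 30.5 and 188 CPM, those of MT1G 26.2 and 139 CPM and those of PEG3 134 and 64.9 CPM. Cell cycle moved with the ranges in this library: G1 calls were 65.8% of the lower and 77.5% of the upper range, and 33 of 42 genes of G2 and M phase were higher in the lower range, where 2.75% of all 4793 genes were higher and 1.13% lower. In DMSO 1 of 41 such genes was. The part of the cycle in the other differences was not tested. In the resistant lines the chromosome 12 share had its median at 7.68% for RES-A, with 90% of the cells between 7.11% and 8.25%, and at 7.12% for RES-B, between 6.50% and 7.70%.

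Among 5057 genes that averaged 20 CPM or more over both groups, 170 (3.36%) were lower in low cells by at least 0.5 and 641 (12.7%) were higher. With ratios centred on the median of all genes, which was 0.13, these were 297 and 374. Most of the contrast lay on the high side: against the 1296 middle cells, the low cells had 0.349% of genes lower and 1.74% higher, and the high cells had 4.5% lower and 1.86% higher. Cell cycle phase moved with the score. By expression of phase genes at 16000 UMIs, 62.2% of low cells were called G1, 11.5% S and 26.3% G2/M, against 90.3%, 4.68% and 5.04% of high cells (63.7%, 10.4% and 25.9% against 91.0%, 3.60% and 5.40% unthinned). In 7 groups ordered by score the G1 share was 62.2%, 58.1%, 59.5%, 60.6%, 76.4%, 85.7% and 90.3%, so the first 4 groups had like shares and the share was larger in each of the last 3. Among members called G1, 3.22% of 4882 genes were lower and 5.49% higher, and G1 values are given beside some of the others below.

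Some of the androgen-induced genes other than KLK2 and KLK3 were lower in low cells. Of 28 measured, 11 were lower and 1 higher by at least 0.5, with a median of -0.34 where all genes had 0.13 (G1: 10 lower, none higher, median -0.37). TMPRSS2, a membrane serine protease, was at 54.2 CPM in low and 186 CPM in high cells (-1.78, -1.94 to -1.62, G1 -1.43). The middle 50% of low cells had 0 to 81.9 CPM of it and that of high cells 85.7 to 273 CPM. The gap between these middle ranges is less than a single UMI at the median depth of either group. PMEPA1, a membrane protein gene, was at 30.4 and 84.4 CPM (-1.47, G1 -1.40). KLK4 was at 97.6 and 174 CPM (-0.83, -0.96 to -0.71), but G1 cells gave -0.37, ranking by KLK3 alone 0.09 and ranking by KLK2 alone -1.54. FKBP5, a co-chaperone of steroid signalling, was at 17.2 and 26.9 CPM (-0.65, -0.97 to -0.33). NCAPD3, a condensin subunit, was the one gene of the list past 0.5 in the other direction, at 50.4 and 19.5 CPM.

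Of 7 luminal epithelial markers measured, 2 were lower in low cells by at least 0.5 and none higher. Their median was -0.38, against -0.34 for the androgen-induced genes and 0.13 for all genes. Ranked by KLK2 alone, however, the luminal median was 0.13 and that of all genes 0.12, while the androgen-induced one was -0.46. With cells ranked within the lower and upper range of chromosome 12 share, the luminal medians were -0.12 and -0.10. The androgen-induced ones were -0.27 and -0.63. The claudin gene CLDN3 was at 80.1 and 126 CPM (-0.65), and the cadherin gene CDH1 went the other way at 135 and 101 CPM (0.41). FOXA1, HOXB13 and FOLH1, which are outside this list, did not pass 0.5. FOXA1 was at 166 and 146 CPM (0.19), HOXB13 at 121 and 156 CPM (-0.37) and FOLH1, which encodes prostate-specific membrane antigen, at 319 and 323 CPM (-0.02, -0.10 to 0.06). The luminal keratins KRT8 and KRT18, both on chromosome 12, were at 149 and 205 CPM (-0.46) and at 376 and 575 CPM (-0.61). No neuroendocrine marker and no marker of non-epithelial cells reached 20 CPM in the mean of both groups, and their summed levels were 16.5 and 11.5 CPM in low and 29.1 and 5.03 CPM in high cells. Of 4 measured genes of the list held down by androgen, 2 were higher in low cells by at least 0.5 and 1 was lower. Over all genes 12.7% were higher and 3.36% lower. The remaining gene of the list was FOLH1, and the summed level of the list was 563 CPM in low and 536 CPM in high cells. UGT2B17, which inactivates androgens by glucuronidation, was at 46.5 and 10.3 CPM (2.17, 1.82 to 2.54, G1 1.78), and the chemokine receptor gene ACKR3 at 71.7 and 20.1 CPM (1.83, 1.58 to 2.09, G1 2.10). CAMK2N1, an inhibitor of a calcium-dependent kinase, went the other way at 44.2 and 139 CPM (-1.65, by KLK2 alone 0.17).

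Genes of glycolysis and hypoxia formed the list with the most members lower in low cells. Of 21 measured, 17 were lower by at least 0.5 and none higher, with a median of -0.92 (G1: 16 of 20, median -0.90). The glycolytic enzyme gene PGK1 was at 269 and 921 CPM (-1.78, -1.85 to -1.71), its relative ALDOC, an aldolase, at 18.2 and 52.6 CPM (-1.53), and P4HA1, a collagen prolyl hydroxylase subunit, at 35.1 and 98.0 CPM (-1.48). The groups differed most in their upper cells. The quartiles of PGK1 were 158, 220 and 303 CPM in low cells and 223, 379 and 1458 CPM in high cells. NDUFA4L2, a hypoxia-induced mitochondrial protein gene on chromosome 12, was between 3.1 and 5.9 CPM in the first 6 groups of the score and at 64.3 CPM in the highest, where 15.1% of cells at 16000 UMIs had a UMI of it against 6.12% of low cells. Against the middle cells, only 1 of 18 genes of this list was lower in low cells by at least 0.5, while 15 of 21 were higher in high cells.

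Several genes found in only some cells were lower in low cells, but most of them not when cells were ranked by KLK2 alone. SYT4, a vesicle protein of secretory cells, was at 20.6 CPM in low and 302 CPM in high cells (-3.87, -4.11 to -3.64, G1 -3.29). At 16000 UMIs it had a UMI in 6.83% of low and 44.2% of high cells (10.1% and 47.1% unthinned). MT1G, a metallothionein, was at 12.3 and 146 CPM (-3.57, G1 -3.68), GSTA1, a glutathione transferase, at 6.28 and 36.1 CPM (-2.52, G1 -3.28) and S100P, a calcium-binding protein, at 45.8 and 128 CPM (-1.49, G1 -1.52). Ranked by KLK2 alone, MT1G had a ratio of 1.09, GSTA1 of 2.00 and S100P of 1.52, while SYT4 had -0.50. Cells with UMIs of SYT4, S100P and GSTA1 together were 13.7% of high cells (9.86% to 18.3%) and 0 of 278 low cells at this depth, which allows a share of up to 1.32% (19.1% and 0.360% unthinned). The histone gene H2AFJ, on chromosome 12, was at 255 and 470 CPM (-0.88, G1 -0.91, by KLK2 alone 0.0068), and 12.2% of low cells (8.62% to 16.7%) and 0.719% of high cells had no UMI of it at 16000 UMIs.

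Genes of the cell cycle were higher in low cells. Of 40 genes of G2 and M phase 39 were higher in low cells, with a median of 2.18, and of 12 S phase genes 9 were higher, with a median of 0.99 (G1: 4 of 12 and 0 of 8). CDC20, an activator of the anaphase-promoting complex, was at 111 and 16.6 CPM (2.74), the mitotic kinase gene AURKA at 52.6 and 6.67 CPM (2.98) and CDK1 at 125 and 22.7 CPM (2.46). Phase calls used genes of these lists, and among G1 cells AURKA was at 2.26 and 2.11 CPM. Outside the cycle, ATP1B1, a sodium pump subunit, was at 680 and 235 CPM (1.54, 1.46 to 1.61, G1 1.81), the prostaglandin receptor gene PTGFR at 68.2 and 21.4 CPM (1.67, G1 1.84), the imprinted gene PEG3 at 371 and 169.5 CPM (1.13, 1.04 to 1.23, G1 1.59, by KLK2 alone -0.37) and FTH1, the ferritin heavy chain, at 18656 and 10472 CPM (0.83, G1 0.66). Of 31 genes of the response to amino acid stress, 14 were higher and none lower, with a median of 0.46 (G1: 6 higher, median 0.31). ATF3, a stress-induced transcription factor, was at 58.7 and 23.9 CPM (1.30, G1 1.07). The nuclear-retained RNAs NEAT1 and MALAT1 were lower, at 2191 and 4375 CPM (-0.998) and at 26472 and 39277 CPM (-0.57).

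**Figure D4:**
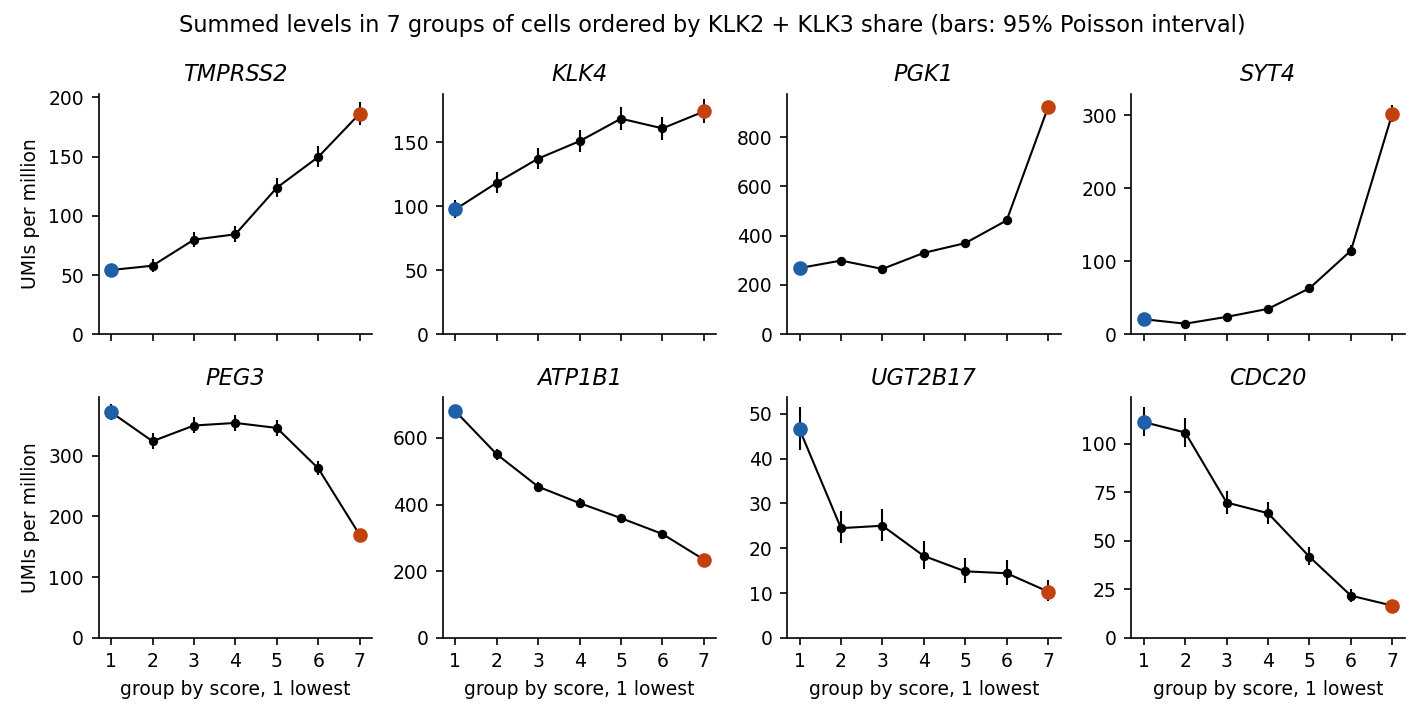
Summed CPM of 8 genes (vertical axes from 0) in 7 groups of cells ordered by the score (horizontal axis), with exact 95% Poisson intervals and the low group in blue and the high group in red. TMPRSS2 and ATP1B1 change step by step, from 54.2 to 186 CPM and from 680 to 235 CPM, whereas PGK1 and SYT4 stand out in the highest group at 921 and 302 CPM.

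Genes differed in the shape of their course over the score. TMPRSS2 read 54.2, 57.9, 79.8, 84.4, 124, 150 and 186 CPM over the 7 groups, and ATP1B1 fell at every step from 680 to 235 CPM. UGT2B17 marked the low end, with 46.5 CPM in low cells and 24.5 CPM in the next group. PEG3 stayed between 324 and 371 CPM over the first 5 groups and was 279 and 169.5 CPM in the last ones. SYT4 was at 20.6, 14.5, 23.9, 34.9, 63.0, 114 and 302 CPM.

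To see which of these ratios held between cells of like chromosome 12 share, the cells were ranked again within each range, with the lowest and highest 15% taken from each. The score did not weigh the same RNA in both. Cells of the lower range had medians of 189 CPM for KLK2 and 0 CPM for KLK3, and those of the upper range 138 and 991 CPM. The ranking thus followed mostly KLK2 in the lower and mostly KLK3 in the upper range. In the lower range, 136 against 136 cells, 2.77% of genes were lower and 11.1% higher, and in the upper range, 141 against 141 cells, 5.41% and 15.7%. TMPRSS2 had ratios of -2.08 and -2.52 in the lower and upper range, and KLK4 -1.63 and -1.94. Androgen-induced genes were lower in 13 of 28 and 15 of 28, with medians of -0.27 and -0.63, and those of glycolysis and hypoxia in 17 of 21 and 18 of 20, with 1 higher in the upper range. PGK1 had -1.83 and -2.24, UGT2B17 1.67 and 1.96, CDK1 3.09 and 3.02. UGT2B17 stayed under the 20 CPM minimum in the comparison inside the upper range, so its 1.96 rests on low counts.

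Other genes differed more between the ranges than with the score inside them. Of these, PEG3, GSTA1, S100P and H2AFJ also changed sign when all cells were ranked by KLK2 alone. In the lower range, chromosome 12 share and the gene that led the ranking therefore cannot be told apart. PEG3 was at 426 CPM in the lower and 206 CPM in the upper range (1.05, 1.00 to 1.10), and within them its ratios were 0.17 (0.07 to 0.27) and -0.13 (-0.28 to 0.03). GSTA1 was at 4.47 and 28.4 CPM (-2.67), and within the ranges at 0.45 (-0.57 to 1.51) and -0.71 (-1.19 to -0.25). S100P was at 42.4 and 120 CPM, with ratios of -0.59 and -0.16 inside. H2AFJ was at 247 and 427 CPM (-0.79), with -0.51 and -0.29 inside, but as a chromosome 12 gene it is part of the share that set the ranges. SYT4, at 16.1 and 146 CPM (-3.18), and MT1G, at 6.81 and 98.5 CPM (-3.86), did both, with -3.52 and -2.36 for SYT4 and -3.99 and -0.92 for MT1G inside. MT1G and GSTA1 stayed under the 20 CPM minimum in the comparison inside the lower range, so their ratios there, -3.99 and 0.45, rest on low counts. ACKR3 was at 71.5 and 27.3 CPM (1.39), with 0.11 (-0.15 to 0.37) in the lower and 1.26 (0.81 to 1.74) in the upper range.

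**Figure D5:**
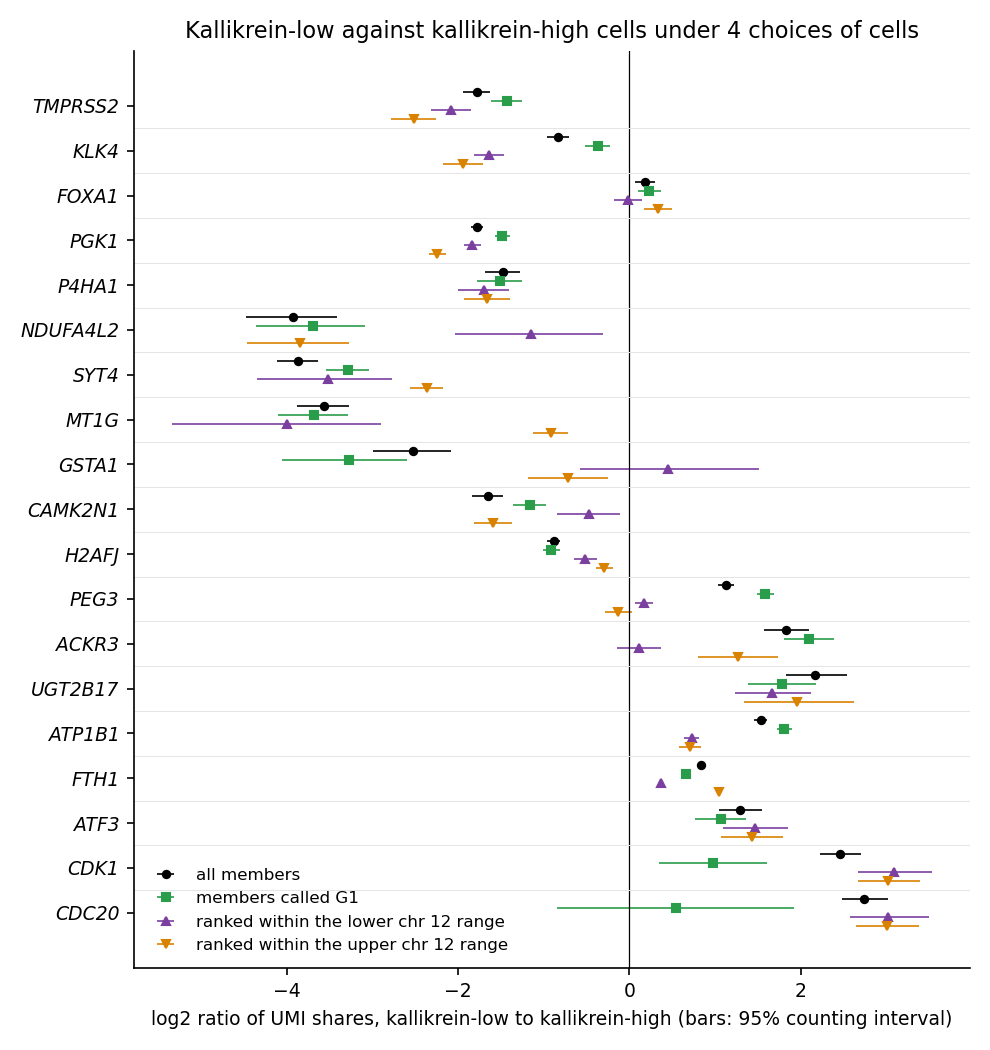
Log2 ratio of UMI shares, kallikrein-low to kallikrein-high (horizontal axis, with exact 95% counting intervals), for 19 genes under 4 choices of cells marked by colour and shape. TMPRSS2, PGK1 and UGT2B17 keep their side in all of them, UGT2B17 with a mean under 20 CPM in the upper range. PEG3 lies at 1.13 for all members and at 0.17 and -0.13 within the ranges of chromosome 12 share.

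The low cells were not uniform. The 239 in the lower range had SYT4 at 4.78 CPM, MT1G at 1.49 CPM and PEG3 at 415 CPM, while the 39 in the upper range had them at 116.2, 77.5 and 109 CPM. The 39 cells also had less KLK4 (43.2 against 107 CPM). G1 calls were 59.0% of the 39 and 62.8% of the 239. Of the high cells, the 31 in the lower range held KLK2 at 2148 CPM and KLK3 at 1176 CPM, and the 247 in the upper range 533 and 2930 CPM, so KLK2 gave most of the score in the former and KLK3 in the latter.

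The same split was made in LNCaP-ENZ48, where 806 of 1471 cells had no UMI of either gene and the 221 low cells are a part of those, taken by barcode order. There 1.45% of 4765 genes were lower and 3.42% higher. Of the genes tested in both libraries, 44 were lower in both, 30.8% of the 143 in DMSO and 67.7% of the 65 in LNCaP-ENZ48, and 119 were higher in both, 22.0% of 540 and 78.3% of 152. None was past 0.5 in opposite directions. Among members called G1, where 1.95% of 4615 LNCaP-ENZ48 genes were lower and 1.58% higher, 39 were lower in both, 28.9% of 135 and 47.0% of 83, and 14 were higher in both, 6.33% of 221 and 23.7% of 59, with 5 that were higher in DMSO and lower in LNCaP-ENZ48. Pearson's r across the 4628 genes, which are not replicates, was 0.68, and 0.41 among G1 cells. Glycolysis and hypoxia genes were lower in 14 of 18 (median -0.66), with PGK1 at 239 and 532 CPM, and SYT4 was at 51.6 and 304 CPM. TMPRSS2 was at 21.0 and 31.5 CPM (-0.59, -0.98 to -0.20), and UGT2B17 at 31.6 and 28.0 CPM (0.17, -0.19 to 0.53). In RES-B, with 602 of 988 cells at 0 and 148 cells in each group, 2.11% of 5316 genes were lower and 3.01% higher. Of the genes tested in RES-B and DMSO, 26 were lower in both, 20% of the 130 in DMSO and 30.2% of the 86 in RES-B, and 80 were higher in both, 13.9% of 575 and 73.4% of 109. In each direction 2 genes of DMSO were past 0.5 the other way, and Pearson's r was 0.45, or 0.14 among G1 cells. The RES-B ratios were -0.73 for PGK1, -2.36 for KLK4 and -0.92 for SYT4, but 1.13 (0.59 to 1.69) for GSTA1 and -0.17 for ATP1B1, against the direction in DMSO.

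The highest score of the low cells, 0.895, is set by the 15% rule in DMSO. Scores at or below it were found in 76.5% of LNCaP-ENZ48 cells (74.3% to 78.7%), 82.2% of RES-B cells (79.7% to 84.5%) and all 779 RES-A cells (99.5% to 100%), where neither gene had a UMI. Those libraries were shallower, with medians of 18032 to 19466 UMIs against 27440 in DMSO. Over all cells with at least 5000 UMIs, thinned to that depth, 21.7% of DMSO, 76.2% of LNCaP-ENZ48, 84.1% of RES-B and 99.9% of RES-A cells lacked both RNAs. The low cells of DMSO were set beside these libraries without a test, since each library is 1 sample. TMPRSS2 was at 54.2 CPM in them and at 23.9 CPM in LNCaP-ENZ48, with 6.68 CPM for RES-A and 18.8 CPM for RES-B. It stood higher in the kallikrein-low untreated cells than in any of these libraries.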

How the data were processed

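Per the labels and the study's methods, living cells were sorted, captured with 10x Genomics 3' chemistry and counted with Cell Ranger 3.0.2 against GRCh38, and the deposited matrices hold raw UMI counts per gene and called cell barcode, 1 library per group. Cell Ranger counts reads that map to 1 gene, so levels of the related KLK2 and KLK3 may be understated. From these counts, cells were filtered, scored and split as described above. UMIs were summed per group over 33538 genes, and a gene was counted as lower or higher at an absolute log2 ratio of 0.5 or more with a mean of at least 20 CPM. Depth in the DMSO groups was 7800043 UMIs in low and 7946963 in high cells. Counts of 0 were set to 3 in ratios. Phases were called with scanpy 1.11.5 on cells thinned to 16000 UMIs, and doublets were not called. The libraries shared 5, 2 and 6 barcodes with the DMSO library, 1 of them a low member. Positions came from GENCODE, matched by gene ID for 33113 genes. No test was run, since each group is 1 library and cells are not replicates. Ratio and interval functions were tested on simulated data.

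The members, gene lists and rules were chosen with earlier results of these data known. Named genes were a fixed set, the 12 highest and 12 lowest ratios with at least 50 CPM in a group and one sign under every choice of cells, and up to 4 genes per list by size of the ratio. PTGFR was named after its G1 value was seen, and ATP1B1 was also named outside these rules. The chromosome 12 ranges and the 617-cell corners were also drawn after seeing the data. Alternatives were other shares of cells, KLK3 or KLK2 alone, the study's cell filter, G1 members, ranking within 10 bins of depth or of MT- share, thinning, mean cell CPM, totals without MT-, centring and other CPM minimums. Python 3.11.15, numpy 2.4.6 and scipy 1.17.1 were used. Some genes are not reported here.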

Additional observations from a re-analysis of the deposited data

How the results depend on the processing

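Counts of lower and higher genes stayed within 1.5 times 170 and 641 with 10% or 25% of cells per group, the study's filter, ranking within 10 bins of depth or of MT- share, thinning, mean cell CPM, totals without MT- and, added after seeing the data, ranking within the chromosome 12 ranges. Lower genes numbered 92 by KLK2 alone, 297 with ratios centred on their median, and 286 and 84 with minimums of 10 and 50 CPM. Higher genes numbered 354 by KLK3 alone, 389 by KLK2 alone, 268 among G1 members, 282 when G1 cells were ranked again (added after seeing the data), 374 when centred, and 1154 and 200 with 10 and 50 CPM. The androgen-induced median lay between -0.48 and -0.21 under these alternatives, with both chromosome 12 ranges pooled.

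By KLK2 alone the ratio changed sign for S100P (1.52), GSTA1 (2.00), MT1G (1.09), PEG3 (-0.37), CAMK2N1 (0.17), ITGA6 (0.14), KRT18 (0.13), HSP90AB1 (0.11), RPS26 (0.017) and H2AFJ (0.0068). List medians that changed sign included those of luminal markers (0.13), p53 targets (-0.05) and the SYT4, S100P and GSTA1 group (0.30). That of basal markers (0.14), with 1 gene measured, also did. KLK4 was 0.087 by KLK3 alone. NDC80 was -1.90 among G1 members and -1.89 ranked again. BTG2 was 0.013 within the chromosome 12 ranges. The androgen-repressed median (4 genes at 20 CPM) was -0.0067 without MT- totals, -0.84 at 50 CPM and -0.20 within the ranges. The cause was not tested for any of these. No paired analysis was possible because each group has 1 library. Depth limited genes under 20 CPM, and intervals cover counting error only.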

Other observations

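Genes of lipid synthesis and of protein synthesis were also read in the kallikrein-low cells. FASN, which encodes fatty acid synthase, was at 62.1 CPM in low and 141 CPM in high cells (-1.18), with ratios of -1.03 and -1.54 within the lower and upper range of chromosome 12 share, and SCD, a fatty acid desaturase gene, was at 73.1 and 125 CPM (-0.78), with -0.98 and -1.81. Over the list of 18 genes of cholesterol and fatty acid synthesis, 3 were lower, 3 were higher and the median was -0.03. Of 78 cytosolic ribosomal protein genes only RPS26 passed 0.5, at 1232 and 1906 CPM (-0.63). RPS26, RPL6 and RPL41, 3 of the 4 ribosomal genes with the largest ratios, lie on chromosome 12, as do NDUFA9 and ATP5MC2 among the nuclear respiratory genes, none of whose 78 members passed 0.5.

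The 25 measured genes on either side of KLK3 and KLK2 had a median ratio of 0.04 (G1 0.12), with 6 lower and 3 higher of 50. Genes of the unfolded protein response (0 of 19), cytosolic heat shock (0 of 13), interferon response (0 of 4), immediate early response (0 of 3) and mitochondrially encoded subunits (0 of 13) did not pass 0.5 in either direction over all members. Over all genes 3.36% were lower and 12.7% higher, which these counts are to be read against. Of 15 p53 targets, FDXR was higher (58.3 and 38.8 CPM) and BTG2 lower (28.3 and 44.4 CPM). Of 14 genes of the NRF2 and redox list, GSTA1 was lower and 5 were higher, PGD (87.1 and 48.3 CPM) with the largest ratio.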
